A study of Rattus norvegicus with 176 samples.

Results

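Clofibric acid (CA) treatment on top of diethylnitrosamine was compared with diethylnitrosamine alone in livers of F344 rats at 12 months, with 5 rats in each group and 1 array for each liver. The arrays were the untagged liver sections whose labels gave the group DEN-Clo:12m (rats 4106 to 4110) or DEN:12m (rats 4073 to 4077), 10 of the 176 arrays of the series. DEN is the usual abbreviation of the liver carcinogen diethylnitrosamine and is not spelled out in the labels. The first group is called DEN-CA and the second DEN here. The titles gave 5000 ppm CA for every sample, control groups included, so the group name and not the title told treated rats from untreated ones. Sex, age, diet, the dose and timing of DEN and the hour of sampling were not given in the sources used here. Rats 4106, 4107 and 4109 also gave a section tagged TUM, and rat 4109 one tagged PERI, tags that the labels did not explain. These tagged sections were kept out of both groups. Another pair of groups of 5 rats at 12 months, CA without DEN and control without DEN, and the same DEN-CA and DEN groups at 5j, 1m, 3m and 9m (the labels' names for the times) served for comparison. Nothing in the labels ties a rat of one group to a rat of another. The p-values and standard errors rest on the spread between rats within groups, pooled over all groups of untagged sections in the model. They do not measure the spread of the compared rats alone.

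CA is a fibrate. Fibrates are agonists of PPARalpha, a nuclear receptor that pairs with RXR and switches on genes for the uptake, activation and oxidation of fatty acids in mitochondria, peroxisomes and the endoplasmic reticulum. In rats and mice, long treatment enlarges the liver, multiplies peroxisomes and leads to liver tumours. DEN is turned by hepatocyte cytochrome P450 enzymes into an agent that alkylates DNA, and a single or repeated dose initiates liver tumours whose growth other compounds can promote.

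Expression is given as scaled signal, the deposited intensity after each array was brought to a common median. A change is the log2 fold change, DEN-CA over DEN, of the signal with 25 added, ± its standard error (n = 5 rats a group). That error uses the pooled spread, so it can be too small for a gene that varied more in these groups than in the others. The added 25 makes changes of dim genes look smaller than they were. "Rose" and "fell" are used for genes with an adjusted p below 0.05 in limma, over 12393 probe sets. Deposited array medians ran from 45 (DEN-CA rat 4109) to 134.3 in DEN-CA and from 94 to 118.2 in DEN. Correlations of log2 values across probe sets were 0.956 to 0.979 within a group and 0.937 to 0.959 between the groups. The sections had the profile of liver tissue: all 9 hepatocyte markers on the array lay above the 40th percentile of every one of the 10 arrays, and their summed signal was 64410 to 140746 in DEN-CA and 69374 to 101602 in DEN. In such bulk tissue, fewer cells of a type and less RNA per cell cannot be told apart.

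At 12 months 650 of 8742 genes passed (7.44%), 312 higher (3.57%) and 338 lower (3.87%) in DEN-CA. The change was at least 2-fold for 79 of the higher and 70 of the lower genes. In 829 genes (9.48%, 4.53% higher and 4.95% lower) no DEN-CA rat overlapped with a DEN rat, and 509 of the 650 called genes were among them. The median change over all genes was -0.01, and the median half-width of the 95% interval of a change was 0.34, so that small changes could be missed. Over probe sets 872 passed (7.04%), 405 higher (3.27%) and 467 lower (3.77%). With arrays left unscaled 212 passed, 74 higher and 138 lower, and the median over all genes moved to -0.19. Without the 3 DEN-CA rats that also gave a TUM section, 289 probe sets passed. That fit has fewer DEN-CA rats, so a call lost in it does not by itself mean a smaller change.

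The gene with the largest rise was Scd2, a stearoyl-CoA desaturase that makes monounsaturated fatty acids. Its signal was 1666, 1277, 1942, 1094 and 1437 in DEN-CA rats 4106 to 4110 and 31.7, 32.1, 33.9, 25.6 and 57.4 in DEN rats 4073 to 4077. The lowest treated rat thus stood far above the highest DEN rat, and the change was 4.62 ± 0.32 (adjusted p = 5.8e-25), with 3.13 in another probe set. An apolipoprotein gene and a lipocalin gene had the largest falls. Apoa4, an apolipoprotein of triglyceride-rich lipoproteins, was at 215, 285, 249.5, 336 and 355 in DEN-CA and 6309.8, 5510.1, 4991, 4883 and 7400.2 in DEN (change -4.23 ± 0.22, adjusted p = 3.1e-35). Obp3, a lipocalin of the alpha-2u-globulin family, was at 179.5, 191, 116, 94.7 and 181 against 3359.5, 2904, 3398, 4289 and 2617 (-4.25 ± 0.66, adjusted p = 3.8e-07), and closely similar members of its family may bind the same probes. Neither gene had a rat of one group within the range of the other.

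**Figure D1:**
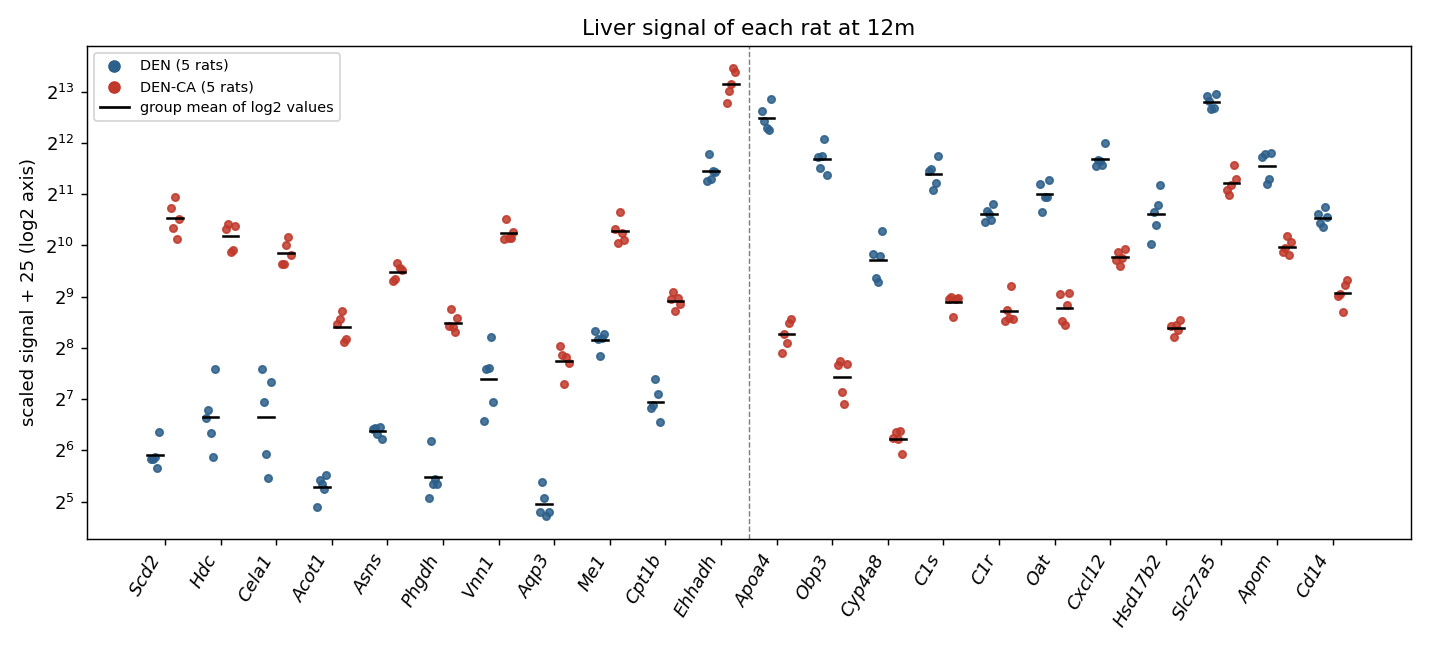
Scaled signal plus 25 (log2 axis) of 11 genes that rose and 11 that fell, 1 point per rat, DEN in blue and DEN-CA in red, with a bar at the mean of the log2 values. In each of the 22 genes all 5 DEN-CA rats lie on one side of all 5 DEN rats.

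Among PPARalpha targets, a small number of genes of fatty acid oxidation carried large rises while most of their pathway did not pass. Ehhadh, the bifunctional enzyme of peroxisomal beta-oxidation, was at 7032, 8225, 9081, 11222 and 10659 in DEN-CA and 2432, 3507, 2479.9, 2782 and 2759 in DEN, with no overlap (1.71 ± 0.22, adjusted p = 9.2e-10). Acot8, a peroxisomal acyl-CoA thioesterase, rose by 1.53 ± 0.22, with 437 to 651 in DEN-CA and 129 to 223 in DEN. These were the called members of 26 peroxisomal genes (2 higher, 0 lower, median 0.17). Cpt1b, the carnitine palmitoyltransferase known chiefly from muscle, was at 473, 523, 398, 476 and 439 against 88.5, 93.1, 144, 113 and 68.4 (1.97 ± 0.20, adjusted p = 4.7e-14). Its liver counterpart Cpt1a went the other way, with 2113 to 2565 in DEN-CA and 3060.0 to 3853 in DEN (-0.51 ± 0.15, adjusted p = 0.015). That call was lost without DEN-CA rat 4109 or DEN rat 4073 (adjusted p = 0.0533 and 0.056). Of 19 genes of mitochondrial fatty acid oxidation, 6 rose and 1 fell, with a median of 0.21. The risers included Eci1, an enoyl-CoA isomerase (0.88 ± 0.19, with 0.68 in another probe set that did not pass), the dienoyl-CoA reductase Decr1 (0.54 ± 0.13) and Hadhb, a subunit of the trifunctional protein (0.54 ± 0.15). Without DEN-CA rat 4109 the list had 4 called genes, without the 3 rats with a TUM section 3, and without scaling 1. Cpt1a and Hadhb were among the genes lost without the 3 rats, where their changes were -0.42 and 0.63. Averaged over the list, the log2 signal of each rat less the DEN mean was 0.14 to 0.46 in DEN-CA and -0.09 to 0.09 in DEN.

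At 5j 11.5% of all genes were called in DEN-CA against DEN (7.41% higher, 4.12% lower), at 1m 17.8% (12.2% higher, 5.61% lower), at 3m 15.4% (11.2% higher, 4.22% lower) and at 9m 7.36% (2.40% higher, 4.95% lower). Of the mitochondrial list 17 genes were higher at 5j, 13 at 1m, 8 at 3m and 1 at 9m, and 2 were lower, both at 9m, with medians of 0.87, 0.56, 0.29 and 0.06. The peroxisomal list had 13, 10, 5 and 2 higher at these times. Whether the list as a whole differed between times was not tested. For Ehhadh the change was 2.79 at 5j, 2.07 at 1m, 2.09 at 3m and 1.63 at 9m. Cyp4a1, the main fatty acid omega-hydroxylase induced by fibrates, was at 6224, 6378, 6701, 8505 and 7861 in DEN-CA and 3311, 3069, 2295, 3285 and 3397 in DEN at 12 months. All treated rats were above all DEN rats, and the gene rose by 1.21 ± 0.19 (adjusted p = 6.5e-07). Cyp4a8, of the same subfamily, fell instead, with 50.4, 57.6, 49.8, 58.5 and 36.0 in DEN-CA and 885, 632, 599.8, 861 and 1228 in DEN (-3.48 ± 0.21, adjusted p = 1.1e-29; -3.62 in another probe set). These were the called members of 9 Cyp4 genes.

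Genes that bring in, activate or release fatty acids rose in part (5 higher and 1 lower of 23, median 0.34). Acot1, a cytosolic acyl-CoA thioesterase, was at 329, 355, 397, 252 and 265 in DEN-CA, while DEN rats read 4.8, 17.6, 15.5, 13.1 and 20.9. It rose by 3.12 ± 0.34 (adjusted p = 3.7e-13), a size set in part by the added 25, since it was 4.04 with 6 and 1.87 with 99 added. Its mitochondrial paralogue Acot2 rose by 1.19 ± 0.29, and the 2 sequences are alike enough that probes could share signal. Acsl3, an acyl-CoA synthetase of lipid droplets, rose by 1.79 ± 0.24 and Fabp5, a fatty acid-binding protein, by 1.53 ± 0.26. The fatty acid transporter Cd36 was at 801 to 939.8 in DEN-CA and 603 to 1237 in DEN, overlapping ranges with a change of 0.12 ± 0.31 (adjusted p = 0.906).

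Glycerol channels and lipid droplet genes had 4 members higher and 1 lower of 18 (median 0.13). Aqp3, an aquaglyceroporin, was at 238, 208, 132, 201 and 185 in DEN-CA and 2.7, 16.6, 8.5, 1.2 and 2.9 in DEN, a rise of 2.80 ± 0.24 (adjusted p = 3.3e-18; 4.11 with 6 and 1.46 with 99 added). Aqp7, another aquaglyceroporin, rose by 1.33 ± 0.18. Cidea, a lipid droplet protein, was at 864 to 983 in DEN-CA and 128 to 378 in DEN and rose by 1.90 ± 0.33. Vnn1, a pantetheinase known as a PPARalpha target, was at 1099, 1432, 1109, 1105 and 1208 in DEN-CA and 70.1, 169, 169, 274 and 98.0 in DEN (2.85 ± 0.36, adjusted p = 4.1e-10).

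Not all genes known as fasting targets of PPARalpha rose. Angptl4, a secreted inhibitor of lipoprotein lipase, was at 412, 304, 248, 314 and 292 in DEN-CA and 703, 808, 587, 934 and 999.5 in DEN, a fall of 1.29 ± 0.25 on the log2 scale (adjusted p = 7.4e-05) with no overlap. At 5j its change had been 1.16. Pdk4, a kinase that restrains pyruvate dehydrogenase, stood at -0.74 ± 0.27 (adjusted p = 0.0794). Fgf21, a liver hormone of fasting, was at 210.1, 889, 1900.2, 872 and 851 in DEN-CA and 188, 247, 182, 326 and 411 in DEN. Rat 4106 lay within the DEN range, and the gene rose by 1.49 ± 0.42 (adjusted p = 0.013), a call lost without DEN-CA rat 4108 (adjusted p = 0.103). Acat1, a thiolase of ketone and isoleucine metabolism, rose by 1.08 ± 0.16 with all treated rats above all DEN rats. In the whole ketogenesis and fasting list 3 of 12 genes rose and 1 fell (median -0.01).

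Lipid synthesis genes formed the list with the highest median besides the small cholangiocyte one: of 23 genes of fatty acid synthesis and desaturation 9 rose and 0 fell (median 0.46). Beside Scd2, the delta-6 desaturase Fads2 was at 4812, 4045, 5529, 5740.2 and 5948 in DEN-CA and 1362, 1455, 1089, 986 and 1333 in DEN (2.05 ± 0.24, adjusted p = 8.9e-12). Me1, the malic enzyme that supplies NADPH, was at 1262, 1029.6, 1588, 1183 and 1075 against 296, 265, 206, 269 and 283 (2.11 ± 0.20, adjusted p = 8.2e-16). In both genes the groups were apart. Srebf1, the transcription factor that drives these genes, rose by 1.73 ± 0.32, with 2894 to 4325 in DEN-CA and 573 to 1847 in DEN. Its feedback partner Insig1 rose by 1.89 ± 0.31, with 1826 to 2878 in DEN-CA and 503 to 999.9 in DEN. Elovl6, a fatty acid elongase, rose by 1.21 ± 0.30 from a dim level (13.8 to 37.1 in DEN). Its call was lost without the 3 rats with a TUM section (change 1.00, adjusted p = 0.221). Over all, 6 genes of the list were called without these 3 rats and 5 without scaling. The list held 9 higher genes at 5j, 13 at 1m, 15 at 3m and 5 at 9m.

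Of 18 genes of cholesterol synthesis and uptake 4 rose and 0 fell (median 0.07), and 0 passed in limma without scaling. Fdps, which makes farnesyl diphosphate, rose by 1.20 ± 0.32 and the squalene synthase Fdft1 by 1.01 ± 0.24. The other risers were Pmvk (0.75 ± 0.19) and Lss (0.53 ± 0.14), the latter with 0.30 in another probe set that did not pass. Fdft1 and Lss were not called without the 3 rats with a TUM section, where their changes were 0.98 and 0.61.

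**Figure D2:**
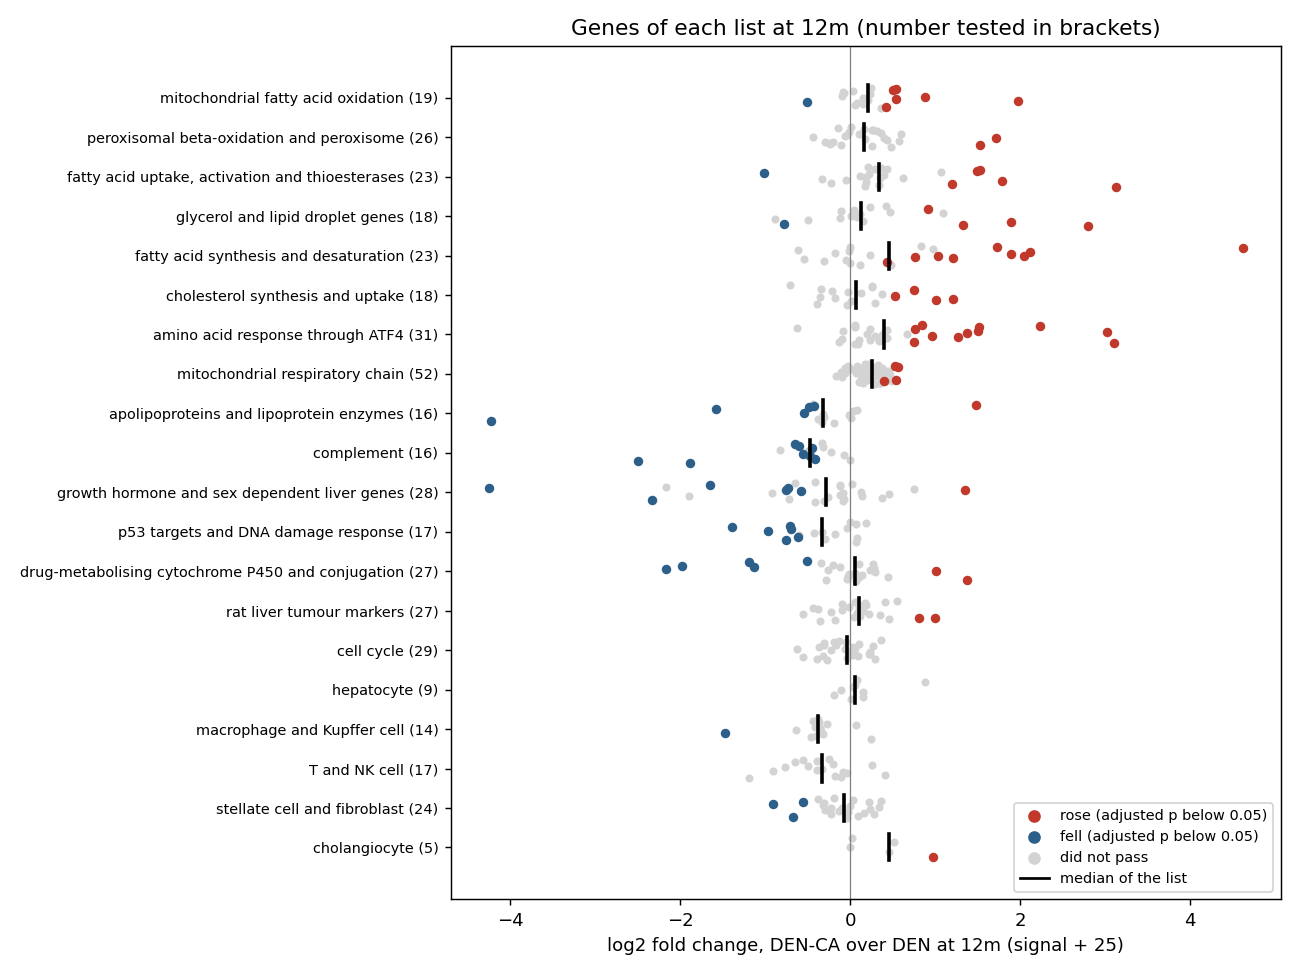
log2 fold change, DEN-CA over DEN at 12 months, of every tested gene of 20 lists, 1 point per gene, red for genes that rose, blue for genes that fell and grey for the rest, with a black bar at the list's median. Genes of fatty acid synthesis and the amino acid response spread to the right, and complement and p53 genes lie mostly left of 0.

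Genes of the amino acid response rose without an exception among those called: 11 of 31 were higher and 0 lower (median 0.39). This response runs through the transcription factor ATF4, which is made when amino acids run short or the endoplasmic reticulum is stressed and switches on amino acid synthesis, transport and tRNA charging. Asns, asparagine synthetase, was at 610.2, 621, 783, 735 and 709.7 in DEN-CA and 60.7, 61.1, 55.3, 62.6 and 50.0 in DEN. The DEN rats were tightly grouped an order of magnitude lower, and the change was 3.11 ± 0.25 (adjusted p = 7.7e-21). Phgdh, the first enzyme of serine synthesis, was at 319, 406, 314, 292 and 357 against 8.6, 47.6, 15.4, 18.2 and 15.6 (3.02 ± 0.36, adjusted p = 4.6e-11; 3.80 with 6 and 1.86 with 99 added). Psat1, the next enzyme of that path, rose by 1.50 ± 0.32. Slc3a2, the heavy chain of amino acid exchangers, rose by 1.52 ± 0.20, with 2489 to 2909.7 in DEN-CA and 759 to 1071 in DEN. The pseudokinase Trib3 was at 463, 549, 485, 856 and 829.9 in DEN-CA and 43.8, 103, 81.6, 199 and 198 in DEN (2.23 ± 0.48, adjusted p = 0.00044). The translation inhibitor Eif4ebp1 (0.97 ± 0.16) and the seryl-tRNA synthetase Sars1 (0.76 ± 0.14) also rose. Averaged over the list, each rat less the DEN mean gave 0.48 to 0.80 in DEN-CA and -0.18 to 0.15 in DEN. At the earlier times 10, 17, 15 and 12 members were higher (5j, 1m, 3m, 9m) and 0 lower. At 12 months 10 members were called without the 3 rats with a TUM section and 4 without scaling. Psat1 was among those lost without scaling (adjusted p = 0.0511).

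Of 23 chaperone and unfolded protein response genes 1 rose and 2 fell (median -0.24), and leaving out 1 rat at a time left 0 (without DEN-CA rat 4108) to 2 called genes.

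Promoters were looked at because members of this response move together and ATF4 binds a known composite element. The letters TGATGNAA, on either strand, were sought in the 250 bases before the start of each gene in RefSeq promoters of build GRCr8. They stood in 3.27% of 27457 promoters and in 1.85% of those of tested genes (135 of 7311). Of the 27 list members with a promoter 6 held them (22.2%: Trib3, Nars1, Iars1, Mars1, Aars1 and Chac1), and of the 10 higher members 1 did (Trib3). Among all genes higher at 12 months the share was 2.9% (7 of 241), and among those lower 2.45% (7 of 286). A match is not a binding site, and these arrays do not measure binding. Pck2, a mitochondrial phosphoenolpyruvate carboxykinase, was another higher gene with a match (1.51 ± 0.34, with 0.44 in another probe set that did not pass). Its call was lost without the 3 rats with a TUM section (change 1.50, adjusted p = 0.058). The matches of Trib3, Fgf21 and Pck2, chosen among the higher genes after their values were seen, are shown with up to 40 bases on either side, 5′ to 3′ on the strand of the gene, capitals marking the letters, which here read on the opposite strand. They begin 21, 143 and 239 bases before the start of the gene. The stretches printed lie at chr3:161275534-161275594 (minus strand), chr1:105221472-105221559 (minus strand) and chr15:32997603-32997661 (plus strand) of GRCr8.
Trib3: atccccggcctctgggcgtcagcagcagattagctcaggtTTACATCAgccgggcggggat
Fgf21: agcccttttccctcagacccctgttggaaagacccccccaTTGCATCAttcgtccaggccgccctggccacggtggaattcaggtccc
Pck2: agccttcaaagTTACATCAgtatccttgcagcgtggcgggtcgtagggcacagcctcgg

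Other enzymes of nitrogen metabolism moved singly. Oat, ornithine aminotransferase, was at 509, 346, 324, 429.9 and 512 in DEN-CA and 2328, 1592, 1953, 1949 and 2459.9 in DEN (-2.22 ± 0.33, adjusted p = 6.3e-08), and it was 1 of 3 genes lower among 12 of the urea cycle and ornithine list. Hibch, an enzyme of valine breakdown, rose by 1.20 ± 0.17 and the glycine decarboxylase Gldc by 0.73 ± 0.18. The amino acid breakdown list had 6 of 40 higher and 1 lower (median 0.05). Without DEN-CA rat 4110 it had 4 called genes, and without the 3 rats with a TUM section 1. Gldc was among those lost (change 0.80 in that fit, adjusted p = 0.0519).

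Lipoprotein genes fell in part. Of 16 apolipoproteins and lipoprotein enzymes 5 fell and 1 rose (median -0.32). Beside Apoa4, Apom, the carrier of sphingosine-1-phosphate in high-density lipoprotein, was at 912, 959.5, 1144, 881 and 1049 in DEN-CA and 3387, 3507, 2318, 2475 and 3535 in DEN (-1.58 ± 0.20, adjusted p = 4e-10). Lpl, lipoprotein lipase, which is low in adult liver, rose by 1.48 ± 0.22, with 203 to 349 in DEN-CA and 61.5 to 106 in DEN. Apoa1, the main protein of high-density lipoprotein, was at 6399 to 11570.1 in DEN-CA and 6684 to 13068 in DEN and did not pass (-0.19 ± 0.21, adjusted p = 0.722). Called members numbered 3 without DEN-CA rat 4108, DEN rat 4073 or DEN rat 4077, and 3 without the 3 rats with a TUM section. Bile acid genes had 2 of 18 higher and 3 lower (median -0.09), and 3 called without DEN rat 4077. Slc27a5, the bile acid-CoA ligase, was at 2138, 2014, 2290.1, 3017 and 2485 in DEN-CA and 7659, 7185, 6437, 6557 and 7905 in DEN, without overlap (-1.58 ± 0.21, adjusted p = 9.8e-10). Nr0b2, the repressor SHP that curbs bile acid synthesis, rose by 2.11 ± 0.41 (962 to 2101 in DEN-CA, 159 to 628 in DEN). The sterol 27-hydroxylase Cyp27a1 rose by 0.73 ± 0.15.

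Complement was the list with the largest share of lower genes among those with at least 10 tested: 8 of 16 fell, 0 rose, and all 16 changes were below 0 (median -0.47). Complement proteins are made mostly by hepatocytes and tag microbes and debris for removal. C1s, a serine protease of the C1 complex, was at 475, 487, 362, 471 and 479.5 in DEN-CA and 2779, 2863, 2139, 2363 and 3419.5 in DEN (-2.50 ± 0.21, adjusted p = 9e-19). C1r, the protease that activates it, was at 344, 401, 361, 563 and 352 against 1376, 1612, 1552, 1420.2 and 1774 (-1.89 ± 0.20, adjusted p = 5.2e-14). No treated rat reached the DEN range in either gene. The lectin pathway's mannose-binding lectins Mbl2 (-0.65 ± 0.13) and Mbl1 (-0.60 ± 0.15), the regulator Cfi (-0.55 ± 0.13) and the membrane attack component C8b (-0.48 ± 0.11) fell by less. Each rat less the DEN mean, averaged over the list, gave -0.79 to -0.41 in DEN-CA and -0.19 to 0.14 in DEN. Without the 3 rats with a TUM section 3 members were called, and 3 were called without scaling. Mbl1, Cfi and C8b were among those lost without the 3 rats, at -0.62, -0.51 and -0.38 in that fit. Coagulation factors, also made by hepatocytes, had 0 of 14 called in limma and 5 with an unadjusted p below 0.05 (median -0.11), although another probe set of the fibrinogen chain Fga fell (-1.01).

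Several single genes of immune signalling were among the lower ones. Cxcl12, a chemokine, was at 819, 910.3, 748, 836 and 953 in DEN-CA and 2981, 3248, 3176, 3032 and 4045 in DEN (-1.91 ± 0.17, adjusted p = 2.2e-17), with 2 other probe sets at -1.43 and -1.92. Cxcl14, another chemokine, fell by 1.64 ± 0.23 on the log2 scale, with 48.5 to 108 in DEN-CA and 207 to 314 in DEN. The alarmin Il33 stood at -1.49 ± 0.25 and the interferon-induced membrane protein Ifitm3 at -1.45 ± 0.21, both with all treated rats below all DEN rats. The interferon and antigen presentation list had 3 of 37 lower and 0 higher (median -0.22), and 1 called without DEN-CA rat 4107, DEN rat 4073 or DEN rat 4077. Cd14, the endotoxin co-receptor of macrophages that hepatocytes also make, was at 491, 508, 389.5, 576 and 617 against 1535, 1359, 1282, 1699.6 and 1473 (-1.47 ± 0.22, adjusted p = 1.4e-07). It was the called member of 14 macrophage and Kupffer cell markers (median -0.38), whose summed signal was 6385 to 8446 in DEN-CA and 9039 to 12092 in DEN. The part of macrophages in the lower complement and chemokine signals was not tested.

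Growth hormone targets and genes that differ between the sexes had 6 of 28 lower and 1 higher (median -0.28). Growth hormone acts on hepatocytes through STAT5 to make IGF1 and its carriers. Cish, a STAT5 target that feeds back on the receptor, was at 40.4, 50.0, 48.4, 12.8 and 29.5 in DEN-CA and 427, 679, 482, 116 and 80.0 in DEN. The DEN rats differed among themselves by a factor of several, all above the treated rats, and the change was -2.33 ± 0.63 (adjusted p = 0.0089). This call was lost without the 3 rats with a TUM section (change -2.24, adjusted p = 0.162). Igfals, the acid-labile subunit of the IGF complex, stood at -0.75 ± 0.21 and Igfbp3, its binding protein, at -0.74 ± 0.18. Igf1 itself was at 3376 to 4746 in DEN-CA and 4773 to 7066 in DEN (-0.58 ± 0.17, adjusted p = 0.0199), a call lost without DEN-CA rat 4107, DEN rat 4073 or DEN rat 4077 (adjusted p = 0.0623, 0.053 and 0.0797). Called members numbered 4 without DEN-CA rat 4107 or DEN rat 4077 and 1 without the 3 rats with a TUM section, where Obp3 still passed.

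Enzymes of drug and steroid metabolism went both ways, with 2 of 27 cytochrome P450 and conjugation genes higher and 5 lower (median 0.05). Cyp3a9, a steroid hydroxylase, was at 141, 160.4, 155, 162 and 127 in DEN-CA and 526, 461, 778, 1598 and 795 in DEN (-2.17 ± 0.37, adjusted p = 6e-06). Hsd17b2, which inactivates oestradiol and testosterone, was at 321, 272, 325, 302 and 348 against 1015, 1575, 1324, 1735 and 2306 (-2.21 ± 0.25, adjusted p = 2.2e-12). The DEN rats spread over a wider range than the treated ones in both genes. The indolethylamine methyltransferase Inmt (-1.98 ± 0.48), the glucuronosyltransferase Ugt2b1 (-1.19 ± 0.32) and the monooxygenase Fmo1 (-1.13 ± 0.27) also fell. Each call was lost without the 3 rats with a TUM section, where the changes were -1.80, -0.99 and -1.18. The epoxygenase Cyp2j4 (1.00 ± 0.17) and the carboxylesterase Ces2c (1.38 ± 0.21) rose. Gstm5 was the called gene of 18 glutathione S-transferases (0.96 ± 0.14). Gpx2, a glutathione peroxidase under NRF2, rose by 0.98 ± 0.19, 1 of 3 higher and 1 lower among 21 genes of the oxidative stress response.

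Of 17 genes of the p53 and DNA damage response 6 fell, 0 rose and 11 did not pass in DEN-CA, with 13 changes below 0 and 4 above (median -0.33). The tumour suppressor p53 is activated by DNA damage and halts the cycle or triggers cell death. Phlda3, a p53 target that restrains Akt, was at 49.3, 96.7, 77.0, 79.9 and 52.4 in DEN-CA and 262, 205, 206, 222 and 222 in DEN (-1.39 ± 0.20, adjusted p = 4e-08). Mgmt, which removes alkyl groups from guanine, was at 249, 183, 253, 257 and 265 against 511, 493, 436, 555 and 474 (-0.97 ± 0.17, adjusted p = 1.2e-05). Both genes separated the groups. The cyclin Ccng1 (-0.76 ± 0.15), the end-joining factor Nhej1 (-0.69 ± 0.16) and Ei24, a death-associated membrane protein (-0.61 ± 0.16), fell as well. Averaged over the list, each rat less the DEN mean gave -0.48 to -0.30 in DEN-CA and -0.09 to 0.08 in DEN. At 5j, 1m and 3m 0, 1 and 1 members were lower and 1, 1 and 2 higher, and at 9m 6 were lower and 0 higher. In rats without DEN, where 12.3% of all genes were called under CA at 12 months (7.28% higher, 4.99% lower), 6 members were lower and 0 higher. The list had 4 called members without the 3 rats with a TUM section, with Ei24 among those lost (change -0.56 in that fit).

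Of 27 marker genes of rat liver tumours 2 rose and 0 fell in these untagged sections (median 0.11), and 1 was called without DEN rat 4077. The glycolytic enzyme Aldoa was among the higher ones (0.81 ± 0.15). Gstp1, the placental glutathione S-transferase that marks preneoplastic foci after DEN, was at 448, 352, 330.3, 386 and 386 in DEN-CA and 301, 456, 443, 377 and 479 in DEN. The ranges overlapped, and the interval of its change ran from -0.56 to 0.37 (-0.09 ± 0.23, adjusted p = 0.902). Of 29 cell cycle genes 0 passed in limma and 4 had an unadjusted p below 0.05 (median -0.03), and the proliferation marker Mki67 was dim in both groups (15.7 to 36.4 and 3.4 to 38.6, change 0.26 ± 0.29, adjusted p = 0.714).

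Several of the largest changes belonged to none of these pathways. Hdc, the histidine decarboxylase that makes histamine, was at 1251, 1343, 912, 936 and 1312 in DEN-CA and 74.3, 85.8, 56.4, 33.3 and 168 in DEN (3.53 ± 0.36, adjusted p = 1.1e-14). Cela1, an elastase of the pancreas and intestine, was at 768, 771, 1007, 1124 and 879 against 169, 97.5, 36.3, 19.2 and 137 (3.20 ± 0.33, adjusted p = 1.9e-14). The groups were apart in both genes. Of 12 further acinar markers 9, among them Prss1, Cpa1 and Cel, lay below the 40th percentile on all 10 arrays, and the summed signal of the 12 was 275 to 350.1 in DEN-CA and 272.8 to 466.4 in DEN. Of the 6 that were tested the elastase Cela2a passed, with 44.7 to 70.4 in DEN-CA and 7.3 to 80.3 in DEN, overlapping ranges (0.75 ± 0.25, adjusted p = 0.0485). Its call was lost in 16 of 24 alternatives, among them 9 of the 10 that left out 1 rat, DEN rat 4075 being the exception. The actin-binding protein Cap2 rose by 2.56 ± 0.29 (1.67 with 99 added), the nicotinic receptor subunit Chrna2 by 2.47 ± 0.31, the magnesium transporter family member Nipal2 by 2.46 ± 0.14 and the zinc finger protein Zfp354a by 2.42 ± 0.55. The reticulon Rtn4 (2.06 ± 0.26) and the caveolar protein Cavin3 (2.03 ± 0.27) were also at least 4-fold up. On the lower side were Nrep (-2.31 ± 0.47), the lipid hydrolase Abhd2 (-1.87 ± 0.26), the mitochondrial carrier Slc25a30 (-1.77 ± 0.42), Tpd52l1 (-1.59 ± 0.19) and the signalling regulator Rgs3 (-1.77 ± 0.27), for which 2 other probe sets stood at -0.21 and -0.44 and did not pass. The clock repressors Nr1d1 and Nr1d2 (REV-ERB alpha and beta) fell by 1.63 ± 0.30 and 1.03 ± 0.23 on the log2 scale, the called genes of 12 of the circadian clock, whose levels swing through the day. The calls of Nr1d2 and Slc25a30 were lost without the 3 rats with a TUM section (changes -0.72 and -1.68, adjusted p = 0.265 and 0.09). The hour at which each rat was sampled was not given, and its part in this was not tested.

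Among the markers of cholangiocytes 1 of 5 tested rose (median 0.46). Epcam, an adhesion protein of bile duct cells and progenitors, was at 457, 472, 439.5, 361 and 418 in DEN-CA and 225, 205, 174, 207 and 219 in DEN (0.98 ± 0.14, adjusted p = 2.8e-08), a call lost without scaling (adjusted p = 0.257). The summed signal of the 9 markers on the array was 3011 to 3512 in DEN-CA and 1885 to 2555 in DEN, most of it from the keratins Krt8 and Krt18, which hepatocytes also make. Krt8 was at 1097 to 1519.9 in DEN-CA and 873 to 1091 in DEN (0.51 ± 0.18, adjusted p = 0.0717), and Krt18 at 1084 to 1405 and 729.5 to 1186 (0.46 ± 0.17, adjusted p = 0.0861). The defining markers Krt7, Cldn4, Cldn7, Spp1 and Mmp7 lay below the 40th percentile on all 10 arrays. The keratin Krt19 was dim as well, at 9 to 72.6 over the 10 sections, and did not pass. T and NK cell markers had 0 of 17 called in limma and 4 with an unadjusted p below 0.05 (median -0.33). Endothelial markers had 0 of 12 by either measure (median -0.11). Stellate cell and fibroblast markers had 3 of 24 lower (median -0.07), and 0 called without DEN-CA rat 4110 or DEN rat 4076. Fabp4, a fatty acid-binding protein of adipocytes and endothelium, rose by 1.49 ± 0.36 (0.68 with 99 added) from a dim level, with overlapping groups.

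CA was also given to rats without DEN, read at 12 months (5 CA, 5 control), which share no rat with the DEN-CA and DEN groups. Of the 650 called genes 640 (98.5%) had the same sign there, and 439 were also called in that direction (236 higher, 203 lower) and 0 in the other. In that comparison 1072 of 8742 genes passed (12.3%). The correlation of log2 fold changes across all tested genes, which are not independent replicates, was 0.76. Scd2 changed by 4.69 without DEN, Apoa4 by -3.95, C1s by -2.72 and Asns by 2.56. The difference between the effects of CA with and without DEN passed for 0 of 12393 probe sets in limma, where 454 (3.66%) had an unadjusted p below 0.05. Its median 95% interval, before adjustment, reached 0.48 to either side, and passing the adjustment takes a larger difference. In the simulated data described below, 10.4% of differences of 0.5 and 64.2% of those of 1 were recovered. This comparison had 117 calls there, which loosens the adjusted cut. With 0 calls in the real data the cut is stricter, so the real shares can be lower. Differences above 0.48 could therefore also be missed. Without CA rat 4139, 1 probe set passed.

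Of 277 genes followed by name, 12 had a 95% interval of that difference that left out 0, and 0 passed the adjustment in limma. Such an interval goes with an unadjusted p below 0.05, which 454 of all 12393 probe sets (3.66%) had in limma. The 12 are thus about as frequent as over all probe sets, and their values are given without a claim that they differ. Acot1 gave 1.15 (95% interval 0.21 to 2.09): with DEN it changed by 3.12 ± 0.34, without DEN by 1.98. In CA rats without DEN its signal was 30.3, 287, 329, 188 and 109 (rats 4137 to 4141). Rat 4137, which also gave a TUM and a PERI section, was the low one, and without it the difference was 0.73 (unadjusted p = 0.122 in limma). CA rat 4141 gave a TUM section too. Acot2 gave 0.89 (0.09 to 1.70), and 0.58 without rat 4137 (unadjusted p = 0.155 in limma). Cyp4a1 gave 0.60 (0.06 to 1.14), with changes of 1.21 ± 0.19 with DEN and 0.61 without. Its signal was 2103, 7474, 7186, 6599 and 7114 in CA rats 4137 to 4141, and without rat 4137 the difference was 0.26 (unadjusted p = 0.31 in limma). Cavin3 gave 0.80 (0.04 to 1.56), and 0.29 without that rat (unadjusted p = 0.407 in limma). For Gstm5 the difference was 0.46 (0.07 to 0.86), for Samsn1 0.72 (0.10 to 1.34) and for the elastase Cela2a 1.13 (0.43 to 1.82), and without rat 4137 these were 0.62, 0.69 and 1.13. Bmal1 (0.40), Hnf4a (0.63) and Tbx3 (1.00) were also above 0. Without rat 4137 they stood at 0.31, 0.56 and 0.80 (unadjusted p = 0.0741, 0.0743 and 0.121 in limma). Mcm3 (-0.78) and Mcm7 (-0.57) were below 0, and stood at -0.82 and -0.40 without rat 4137 (unadjusted p = 0.0106 and 0.0762 in limma). Rat 4137 stood apart in other genes too, among them Hdc, with 135, 1236, 1382, 1249.8 and 876 in rats 4137 to 4141. Cyp1a2 was at 302 in it and 2341 to 3485 in the other CA rats. Slc2a2 was at 336 and 1581 to 1836, and Fabp5 at 2310 and 456 to 769. Of the 650 called genes, 41 had an interval that left out 0. These genes were chosen by their change after DEN, which is part of that difference, so their count cannot be set against the 3.66% of all probe sets. Mitochondrial respiratory chain genes had 4 of 52 higher after DEN (median 0.25) and 27 higher without DEN (median 0.44), and cytosolic ribosomal protein genes 0 of 24 after DEN (4 with an unadjusted p below 0.05, median 0.17) and 21 without (median 0.49). The count of 4 was 0 without scaling, 23 with quantile normalization, 14 with array weights, 7 with the compared groups alone in the fit, 1 without the 3 rats with a TUM section and 2 without DEN-CA rat 4110 or DEN rat 4075, so that its distance from 27 depends on the processing. The counts of 27 and 21 include rat 4137 and were not fitted again without it. No gene of either list passed in the test of the difference.

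**Figure D3:**
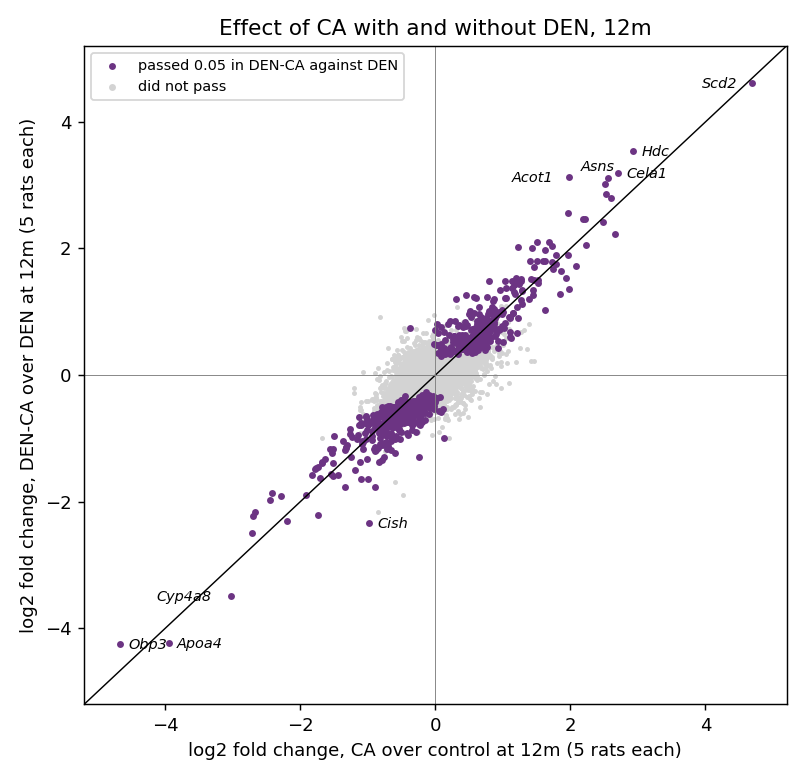
log2 fold change of each tested gene under CA without DEN (horizontal axis, CA over control) and after DEN (vertical axis, DEN-CA over DEN), both at 12 months with 5 rats a group. Purple points passed in DEN-CA against DEN, and the line marks equal change. Most purple points have the same sign on both axes (640 of 650).

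The effect of CA after DEN at 12 months was also set against its mean at the 4 earlier times, with 5 rats in each of 10 groups. The direction was mostly shared: 585 of the 650 genes (90%) had the same sign at 5j, 613 (94.3%) at 1m, 625 (96.2%) at 3m and 626 (96.3%) at 9m. In the same direction 149 were called at every time (80 higher, 69 lower), while 115 were called in their direction at 12m and at none of the 4 earlier times (31 higher, 84 lower). The test of the difference passed for 20 probe sets (0.161%) and 14 genes (0.160%), of which 5 were higher (0.0572%) and 9 lower (0.103%) at 12 months. Without DEN rat 4076 12 probe sets passed, without the 3 rats with a TUM section 6 and without scaling 13. No 12m array had the title suffix B, which the labels do not explain, while 1 to 4 of 5 arrays had it in each earlier group. The suffix thus goes partly with time, and with it as a covariate 17 probe sets passed. A second probe set of Scd2 was among the 20 (difference 1.53), while its brighter one was not (1.38, adjusted p = 0.11).

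In Cd36, Aldh1a1, Cyp4a8 and Cela1 the mean level of DEN rats at 12m was further, in fold, from that at 5j than the mean level of DEN-CA rats was. The same held for Tpd52l1, Cxcl14, Hsd17b2, Nr1d1, Nr1d2, Nipal2 and Samsn1, but not for Cap2, Gstm5 and Mgmt. Cd36 was at 94.9 ± 30.9 at 5j and 808 ± 247 at 12m in DEN (mean signal ± SD, n = 5), and at 1352 ± 631 and 854 ± 59.3 in DEN-CA. Its change was 3.43 at 5j and 0.12 ± 0.31 at 12m (difference from the earlier mean -1.66, adjusted p = 0.0045). Aldh1a1, a retinal dehydrogenase, was at 899.6 ± 310.2 and 2937 ± 358 in DEN at these times and at 4294 ± 1059 and 2413 ± 323 in DEN-CA. Its change was 2.25 at 5j and -0.28 ± 0.29 at 12m (difference -1.89, adjusted p = 0.00020). Cyp4a8 was at 173 ± 19.9 and 841 ± 252 in DEN and between 48.7 and 73.1 in DEN-CA at all times (difference -1.62, adjusted p = 3.5e-06). Cela1 was at 437 ± 133 and 91.8 ± 64 in DEN and at 745 ± 214 and 909.8 ± 155 in DEN-CA (difference 1.58, adjusted p = 0.023). Different rats were measured at each time, and a trend within DEN rats alone was not tested.

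The steroid dehydrogenase Hsd17b2 (difference -1.66), Tpd52l1 (-1.08) and Cxcl14 (-1.17) had a lower change at 12m than in the earlier mean. For Hsd17b2 the DEN level was 518 ± 253 at 5j and 1591 ± 484 at 12m, and the DEN-CA level 535 ± 77 and 313 ± 28.6. Tpd52l1 was at 39.9 ± 22.3 and 233.9 ± 21.1 in DEN and at 41 ± 12.5 and 61.9 ± 16.4 in DEN-CA at these times. For Cxcl14 the levels were 52.2 ± 24.7 and 264.9 ± 41.6 in DEN and 66.2 ± 18 and 69.1 ± 24.1 in DEN-CA. Nr1d1 (-1.63) and Nr1d2 (-1.13) were lower under CA at 12m and did not pass at any earlier time. Mgmt (-0.88) had its fall at 9m and 12m, with changes of -0.88 and -0.97 ± 0.17, and values of 0.02 to 0.35 before. Cap2 (1.41) and Nipal2 (0.91) had a higher change at 12m than in the earlier mean, Cap2 with mean signals in DEN-CA of 61.2 at 5j, 90.1 at 1m, 172.8 at 3m, 282.1 at 9m and 338.4 at 12m while DEN stayed between 39 and 53.2. Gstm5 differed by 0.67. Samsn1, an adaptor of lymphocytes, differed by 1.05. Its call at 12m (0.71 ± 0.22) was lost in 6 of the 10 fits that left out 1 rat (adjusted p = 0.051 to 0.139). The call was also lost without the 3 rats with a TUM section, where the change was 0.91.

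**Figure D4:**
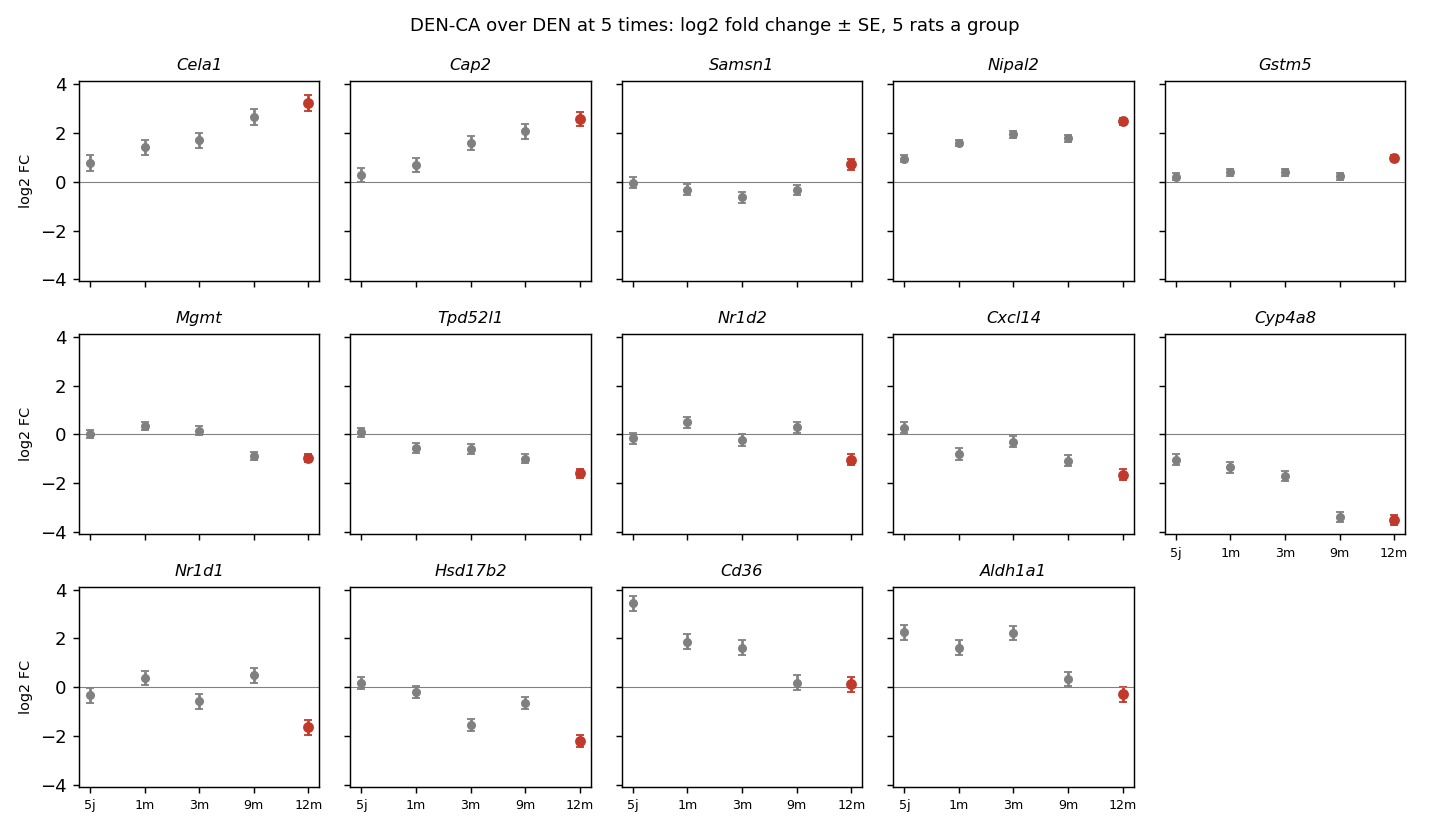
log2 fold change ± standard error, DEN-CA over DEN, at 5j, 1m, 3m, 9m and 12m (5 rats a group at each time) for the 14 genes whose change at 12m differed from the mean of the 4 earlier times, with 12m in red. The 5 genes of the first row are higher at 12m than that mean and the other 9 lower, with Cd36 and Aldh1a1 near 0 at 12m after changes of 3.43 and 2.25 at 5j.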

How the data were processed

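Total RNA of rat liver sections was measured on 1-colour oligonucleotide arrays, 1 array per section. The deposited values are intensity on a linear scale, computed by the authors with MAS5 per the submitters' processing notes, whose version, target level and any further step are not given in the sources used here. Each array was divided by its median and multiplied by 99.35, the median of the array medians of the series, 25 was added and log2 was taken. Probe sets above the 40th percentile of an array on at least 3 arrays were kept (12393 of 15922). One model with 30 groups over 148 untagged sections was fitted in limma 3.58.1 (R 4.3.3; lmFit, eBayes with trend), which pools the spread over groups, with Benjamini-Hochberg adjustment at 0.05. The number of arrays limits the precision. Called "genes" are those of the 12783 probe sets with 1 gene (12748 by Entrez ID, 2 by accession, 33 by the array's name), each given by its probe set with the highest mean; 312 probe sets had several genes and 2827 none.

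Data of the same size were simulated with the fitted spread and noise independent between probe sets. In the groups compared, CA had no effect except in DEN-CA at 12 months. There 67, 67 and 66 probe sets were changed by 0.5, 1 and 2 on the log2 scale. The 12-month comparison recovered 23.9%, 91% and 93.9% of these changes, and 4.79% of its calls were false. The comparison with and without DEN recovered 10.4%, 64.2% and 92.4%, and that between times 17.9%, 83.6% and 93.9%. Beyond the array medians, shifts shared by many genes of an array were not simulated, so these shares need not hold for the real arrays.

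Named genes are the 20 highest and 20 lowest called genes, the 6 members of each of 46 lists with the smallest p, a fixed panel, and the 8 highest and 8 lowest called in each of the other comparisons. The groups compared, the lists and the panel were chosen with earlier results of these data known. Alternatives varied the added value, scaling, filter, groups in the fit, a title suffix as covariate, array weights, the variance model, a 2-fold minimum, the choice of probe set and each rat. Leaving out the 3 rats with a TUM section was chosen after seeing the data. Promoter sequences are from RefSeq (GRCr8).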

Additional observations from a re-analysis of the deposited data

Results flagged for a closer look

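In 124 genes, each in both groups of 5 rats, 7 of 248 groups held a rat far from the other 4, where chance flags about 1 in 20 groups. Rtn4 was at 414.6 in DEN-CA rat 4109 and 621.8 to 683.4 in the other DEN-CA rats. Cyp4a1 was at 2294.5 in DEN rat 4075 and 3068.7 to 3396.8 in the others of its group. Gstm5 was at 164.3 in DEN-CA rat 4110 against 127.8 to 135.8, C1s at 362.3 in DEN-CA rat 4108 against 470.7 to 487.3, and Mgmt at 183 in DEN-CA rat 4107 against 248.7 to 264.9. DEN rat 4077 stood apart in Cxcl12 (4045.2 against 2980.8 to 3247.6) and in Nhej1 (54.4 against 111 to 130.9).

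The change under CA after DEN at 12m differed from its mean at the 4 earlier times for 14 genes in limma. It was higher at 12m for Cela1 (difference 1.58), Cap2 (1.41), Samsn1 (1.05), Nipal2 (0.91) and Gstm5 (0.67). It was lower for Mgmt (-0.88), Tpd52l1 (-1.08), Nr1d2 (-1.13), Cxcl14 (-1.17), Cyp4a8 (-1.62), Nr1d1 (-1.63), Hsd17b2 (-1.66), Cd36 (-1.66) and Aldh1a1 (-1.89).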

How the results depend on the processing

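The count of 872 probe sets was 212 (74 higher) without scaling, 1599 (722 higher) with array weights, 210 (107 higher) with a 2-fold minimum and 289 (169 higher) without the 3 rats with a TUM section. It was 664 to 810 with 1 rat left out and within 1.5 times the main count under the other alternatives. The count of 20 for the difference between times was 13 without scaling, 39 with array weights, 6 without the 3 rats and 12 to 21 with 1 rat left out (12 without DEN rat 4076). The count of 0 for the difference with and without DEN was 0 to 1 with 1 rat left out (1 without CA rat 4139) and 0 otherwise. Of 124 genes followed, 118 were called, and all 118 kept their direction. The 2-fold minimum was not applied to these genes, and 58 were called under every other alternative. Calls were lost for 50 without scaling, 40 without the 3 rats and 19 with some 1 rat left out, and 99 stayed called whichever rat was left out. Cd36, not called, turned from 0.12 to -0.10 without scaling. The causes were not tested. A 2-fold minimum cannot raise a count, while leaving out a rat moved some counts up and others down. Dim genes depend on the added value: Acot1 changed by 4.04 with 6 added and 1.87 with 99. The rats' sex, sampling hour and hybridisation batch are not given in the sources used here, and 1 section stands for each liver.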

Other observations

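The DEN-CA rats 4106, 4107 and 4109 also gave a section tagged TUM, and rat 4109 one tagged PERI, which entered no comparison. Phgdh was at 456.9, 754.5 and 942.6 in the TUM sections of rats 4107, 4109 and 4106, above the highest of the 10 untagged sections (406.4), and at 386 in the PERI section. Cela1 was at 1427, 1494 and 1475 in these TUM sections, where the highest untagged section read 1124. Oat was at 18.5, 173.7 and 107.7, below the lowest untagged section (324.2), and Slc27a5 at 295.3, 1191 and 350, where the lowest untagged section read 2014. Hdc, higher in untagged DEN-CA sections, was at 120.5, 513 and 184.1 in the TUM sections and 1473 in the PERI section. Obp3 was at 37.3, 78 and 16.1, below the lowest untagged section (94.7).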
